A study of Mus musculus with 15 samples.

Results

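The peroxisome proliferator-activated receptors Ppara, Ppard and Pparg, their dimer partners Rxra and Rxrb, the coactivators Ppargc1a and Ppargc1b and the corepressor Ncor1 were followed across fat precursor cells of mouse pups. The 8 genes were chosen by symbol, and all 8 were found among the 23347 gene IDs of the progenitor table and the 23118 gene IDs of the preadipocyte table. Wildtype C57Bl/6 pups had been nursed by foster mothers whose milk was either high or low in its n6/n3 ratio, the ratio of omega-6 to omega-3 polyunsaturated fatty acids. The exposure lasted 12 days according to the growth protocol and 10 days according to the treatment protocol. Adipocyte precursor cells were sorted from subcutaneous fat into CD24+ progenitors and CD24- preadipocytes, and their RNA was sequenced in bulk. Among progenitors, libraries 1015, 1017, 1018 and 1019 came from the high ratio and libraries 108, 114, 119 and 133 from the low ratio, 4 of each. Among preadipocytes the same numbers recur except 1018, so that 3 libraries stand against 4. For the preadipocyte libraries 108, 114, 119 and 133, the labels disagree: the source name gives a high ratio and the sample characteristics a low one, and the characteristics were followed. Every milk comparison in preadipocytes rests on that choice. The same numbers are low-ratio in progenitors, and the source name would leave no low-ratio preadipocyte library. With this split, recomputed fold changes matched those of the authors' deposited comparison in preadipocytes (median absolute difference 0.00304 over 11076 genes). The labels name no other diet and do not say how many pups went into a library, so the spread between libraries may be partly technical.

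These receptors are ligand-activated transcription factors that bind DNA as dimers with a retinoid X receptor. Polyunsaturated fatty acids and their oxidized products are among their natural ligands. PPARγ, encoded by Pparg, is the master regulator of fat cell formation, PPARα and PPARδ drive genes of fatty acid oxidation, PGC-1α and PGC-1β (Ppargc1a and Ppargc1b) recruit the transcription machinery to these receptors, and NCoR1 holds them silent through histone deacetylases.

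The gene models differ in their starts, and RefSeq promoter windows on GRCm38.p6 (250 bases before to 50 bases after a start) were found for 7 of the 8 genes, with 12 windows in all, numbered by coordinate within a gene. Pparg is shown because its levels in the populations did not overlap, and Ppargc1a because it had the widest ratio of highest to lowest value among progenitor libraries. Pparg (ENSMUSG00000000440) spans bases 115360951 to 115490399 of chromosome 6 on GRCm38, plus strand. Of its 7 transcripts, Pparg-201 has its own start codon at 115422111, inside its window shown here, and 4 others share the start codon at 115439848. That layout is the one known for the adipocyte-enriched and the general PPARγ isoforms. The deposited values are given per gene and cannot tell these isoforms apart. Ppargc1a (ENSMUSG00000029167) spans bases 51454250 to 51567726 of chromosome 5, minus strand. Its window belongs to the upstream start, used by 2 of its 5 transcripts, while the other 3 share a start codon at 51553782. Capitals mark CG dinucleotides, read 5′ to 3′ on the gene's strand.
Pparg, first window, chr6:115360894-115361193, plus strand: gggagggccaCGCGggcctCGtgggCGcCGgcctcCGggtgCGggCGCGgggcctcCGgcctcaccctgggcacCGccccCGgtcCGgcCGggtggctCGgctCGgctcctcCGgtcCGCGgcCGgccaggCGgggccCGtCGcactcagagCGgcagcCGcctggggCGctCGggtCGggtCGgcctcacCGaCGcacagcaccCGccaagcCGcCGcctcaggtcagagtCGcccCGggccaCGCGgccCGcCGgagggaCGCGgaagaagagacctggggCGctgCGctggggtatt
Pparg, window of Pparg-201, chr6:115421816-115422115, plus strand: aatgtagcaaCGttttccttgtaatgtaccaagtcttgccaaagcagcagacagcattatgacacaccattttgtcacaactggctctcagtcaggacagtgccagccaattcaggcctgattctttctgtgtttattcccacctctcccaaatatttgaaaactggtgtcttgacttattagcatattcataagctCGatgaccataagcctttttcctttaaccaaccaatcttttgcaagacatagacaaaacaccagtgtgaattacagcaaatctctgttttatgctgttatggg
Ppargc1a, chr5:51567676-51567975, minus strand: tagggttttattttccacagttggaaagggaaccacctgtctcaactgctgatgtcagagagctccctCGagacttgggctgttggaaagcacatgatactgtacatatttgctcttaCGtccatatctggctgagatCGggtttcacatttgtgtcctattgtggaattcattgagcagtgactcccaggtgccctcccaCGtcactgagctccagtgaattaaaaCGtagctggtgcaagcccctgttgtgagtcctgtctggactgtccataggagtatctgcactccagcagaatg
The first Pparg window holds 44 CG dinucleotides and is 80.3% G and C, whereas the Pparg-201 window holds 2 and is 40.3% G and C. The Ppargc1a window holds 5. The median over all 32851 windows of the same length is 7 CG dinucleotides and 52.7% G and C. Among the other members, Ppara (30), Ppard (27), both Rxrb windows (37 and 47), the first Rxra window (55) and the second Ncor1 window (36) are rich in CG, and the second Rxra window (1) and the first Ncor1 window (2) are poor. The nuclear receptor core motif AGGTCA, searched on both strands, is found in 3 of the 12 windows, namely the first and second Pparg windows and the second Rxra window, and in 16.3% of all windows. Its direct repeat with a single base between, AGGTCANAGGTCA, each copy of which also counts as a core motif, is found in 0 of the 12 and in 0.0396% of all windows. The cyclic AMP response element TGACGTCA is found in 0 of the 12 and in 1.79% of all windows. The downstream start of the other 3 Ppargc1a transcripts had no window. Its CG content and motifs were therefore not examined. The TATA box TATAAA is found in 1 of the 12 (the second Pparg window) and in 13.6% of all windows. A match describes these letters and is not a binding site.

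Values are normalized counts, recovered from the deposited transformed values of each population's own table. Estimated depth was 34.4 to 59.1 M reads (M, mega) per library in progenitors and 13.8 M (library 1015) to 68.9 M (library 1017) in preadipocytes. Counting error is largest for genes of few reads. The sort was visible in Cd24a, which averaged 54.3 CPM (normalized counts per 1000000 of the library total) in progenitors and 18.0 in preadipocytes. Precursor markers were high in both populations, with Pdgfra at 14145 to 18013 normalized counts in progenitors and 11054 to 21984 in preadipocytes. Markers of mature fat cells were low beside these, with Adipoq, the adiponectin gene, at 4.38 to 39.3 in progenitors and 27.1 to 63.8 in preadipocytes. Lipe was the highest of them, at 144 to 299 in progenitors and 81.9 to 260 in preadipocytes. Plin1 had 34.4 to 124 and 66.0 to 112. In progenitors, endothelial markers summed to 231 to 355 CPM, of which Tek averaged 207, and erythroid markers to 77.5 to 695 CPM. Ucp1, the brown fat uncoupler, did not exceed 8.74 normalized counts in progenitors and 9.50 in preadipocytes. In bulk RNA, fewer cells of a type and less RNA per cell cannot be told apart.

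No member passed the test between milks in either population. In limma with Benjamini-Hochberg adjustment over all genes tested, 0 of 8 members had an adjusted p under 0.05 in progenitors, where 0.0% of 15973 genes tested did. Unadjusted, 0 of 8 were under 0.05, against 6.88% of genes tested. In preadipocytes 0 of 8 members were called, against 2.88% of 15893 genes tested (0.535% in the direction of higher values with the low ratio and 2.35% in the other). By the unadjusted p the count there was 1 of 8, Ppard, against 21.7% of genes tested. The authors' deposited table called 0 of the 8 in both populations as well, and its smallest adjusted p was 0.371 for Ppargc1a in progenitors and 0.144 for Ppard in preadipocytes. The median fold change of the 8 members, low minus high on the log2 scale, was 0.09 in progenitors, where that of all genes tested was −0.0037. In preadipocytes it was 0.14, where that of all genes tested was 0.04. Fold changes below are all low minus high on the log2(normalized count + 1) scale, with the standard error (SE) from limma. The added 1 draws low values together, yet estimates for genes of few reads lay on either side of the authors' values. In progenitors Ppara had 1.17 against 0.82 in the authors' table, and Ppargc1a 1.57 against 2.43.

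**Figure D1:**
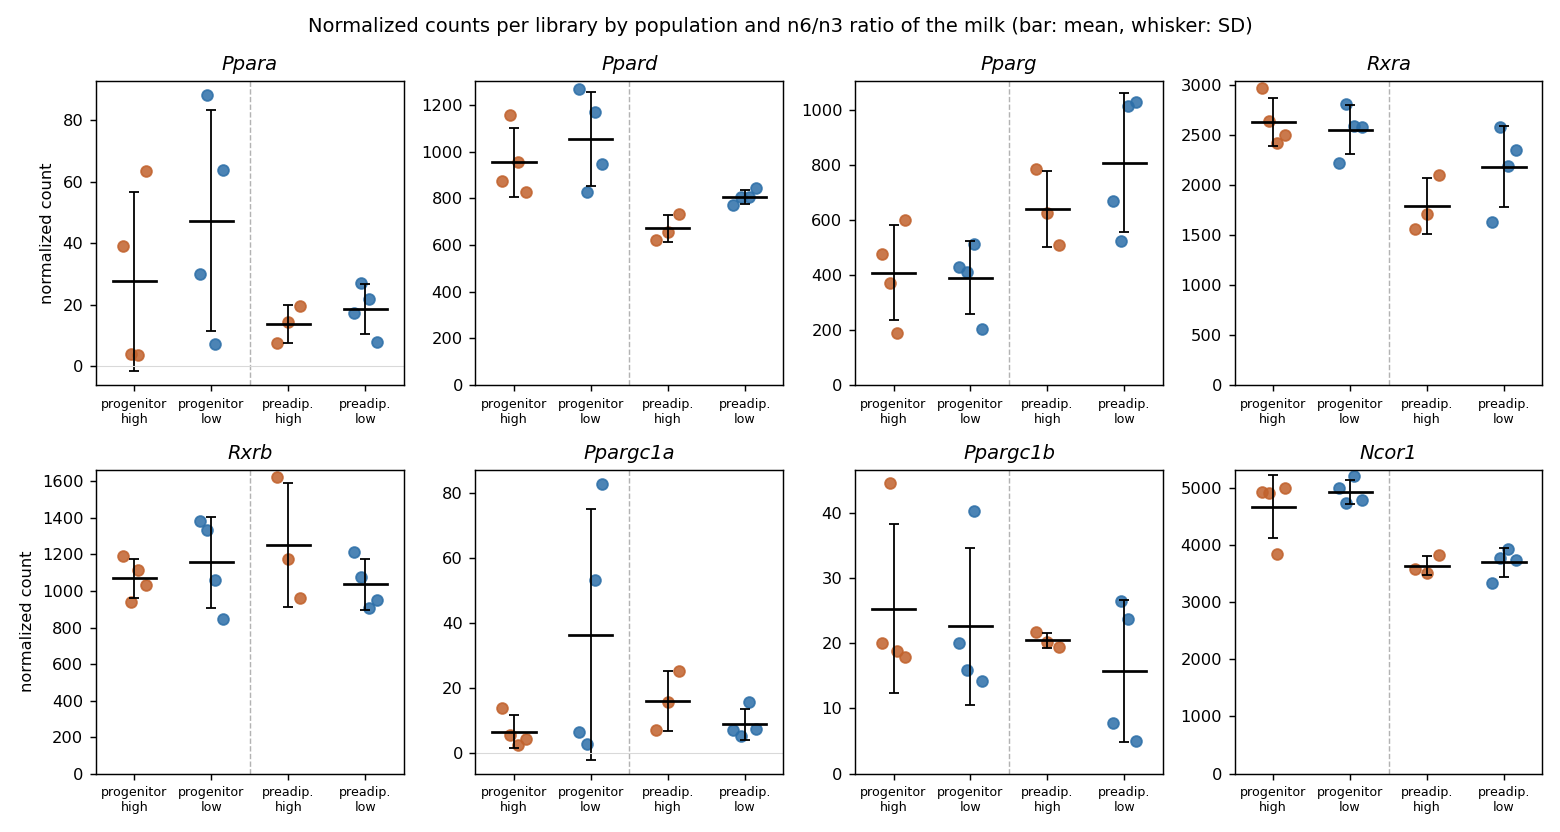
Normalized counts of the 8 genes (y axis, separate scale per gene) in each library, by population and milk (x axis). Points are libraries, bars are means and whiskers are SD, with 4 libraries per group and 3 in preadipocytes on high-ratio milk. The groups overlap in every panel and population apart from Ppard in preadipocytes, where low-ratio libraries sit at 773 to 844 and high-ratio libraries at 622 to 734.

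Pparg, the regulator of fat cell formation, had 475 (1015), 370.4 (1017), 189 (1018) and 599 (1019) normalized counts in progenitors on high-ratio milk. With the low ratio it had 429.7 (108), 412 (114), 514 (119) and 203 (133). A single library in each milk group, 1018 and 133, was low, and the groups overlapped. The fold change was −0.03 ± 0.38 (SE, adjusted p = 0.989). Its 95% confidence interval ran from 0.541-fold to 1.78-fold, so a change within that range remains compatible with these libraries. In preadipocytes Pparg had 785 (1015), 623 (1017) and 510.3 (1019) with the high ratio, and 668 (108), 524 (114), 1014 (119) and 1028 (133) with the low ratio. Libraries 119 and 133 were the highest, while 108 and 114 lay within the high-ratio range. Its fold change was 0.30 ± 0.27 (SE, adjusted p = 0.539). Library 133 thus had the next to lowest Pparg among progenitors and the highest among preadipocytes.

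Pparg varied more between libraries of a group than most genes of its level. Its pooled SD within milk groups was 0.66 on the log2 scale in progenitors and 0.42 in preadipocytes. The median over genes with a mean of 100 to 1000 normalized counts was 0.29 in progenitors and 0.28 in preadipocytes.

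Ppard, the receptor found in most tissues, was steadier than Pparg. Its pooled SD within groups was 0.25 in progenitors and 0.09 in preadipocytes, beside medians of 0.16 and 0.28 for genes at its level. In progenitors it had 875 (1015), 1159 (1017), 956 (1018) and 825 (1019) normalized counts with the high ratio, and 1270.2 (108), 828 (114), 1169.8 (119) and 948 (133) with the low ratio. The groups overlapped almost fully, and the fold change was 0.14 ± 0.16 (SE, adjusted p = 0.870). In preadipocytes it had 622 (1015), 658 (1017) and 734 (1019) with the high ratio, and 773 (108), 804 (114), 806 (119) and 844 (133) with the low ratio. Each of the 4 low-ratio libraries lay above each of the 3 high-ratio libraries, as in 10.1% of genes tested (21.1% in either direction). This gave a fold change of 0.27 ± 0.12 (SE), with a 95% interval from 1.001-fold to 1.45-fold. The unadjusted p was 0.0491 and the adjusted p was 0.228, so Ppard was not called. Once fold changes were freed of their trend on GC content and length, its fold change was 0.11 (adjusted p = 0.628). Median transcript GC content is 59.8% for Ppard.

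Ppara, the receptor of fatty acid oxidation in liver, was scarce and uneven. In progenitors it had 39.1 (1015), 3.84 (1017), 3.67 (1018) and 63.6 (1019) normalized counts with the high ratio, and 29.9 (108), 88.3 (114), 7.26 (119) and 63.9 (133) with the low ratio. High and low libraries occurred on both milks. The lowest, library 1018, rested on an estimated 3.47 reads and library 1019 on 90.1. The estimate was 1.17 ± 1.04 (SE, adjusted p = 0.818), with a 95% interval from 0.449-fold to 11.2-fold. In preadipocytes it had 7.42 (1015), 14.2 (1017) and 19.5 (1019) with the high ratio, and 17.3 (108), 27.1 (114), 21.7 (119) and 7.83 (133) with the low ratio, with a fold change of 0.38 ± 0.55 (SE, adjusted p = 0.726). The pooled SD within groups was 1.78 in progenitors and 0.70 in preadipocytes, where genes with a mean of 10 to 100 had medians of 0.71 and 0.63.

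Rxra, the retinoid X receptor that most often pairs with these receptors in fat and liver, was abundant. In progenitors it had 2967 (1015), 2641 (1017), 2418 (1018) and 2503 (1019) normalized counts with the high ratio, and 2219 (108), 2813 (114), 2589 (119) and 2583 (133) with the low ratio. The groups overlapped over most of their ranges. The milk effect was estimated at −0.05 ± 0.10 (SE, adjusted p = 0.937), with a 95% interval from 0.828-fold to 1.13-fold. In preadipocytes it had 1562 (1015), 1713 (1017) and 2103 (1019) with the high ratio, and 1625 (108), 2577 (114), 2188 (119) and 2349 (133) with the low ratio. Low-ratio libraries other than 108 lay above all high-ratio ones. The fold change was 0.28 ± 0.17 (SE, adjusted p = 0.387).

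Rxrb, the broadly expressed retinoid X receptor, had 1189 (1015), 937 (1017), 1117 (1018) and 1031 (1019) normalized counts in progenitors with the high ratio, and 1384 (108), 1335 (114), 1059 (119) and 848 (133) with the low ratio. Its fold change was 0.09 ± 0.16 (SE, adjusted p = 0.920). Both the highest and the lowest libraries came from low-ratio milk. In preadipocytes it had 1625 (1015), 1173 (1017) and 962 (1019) with the high ratio, and 1212 (108), 1076 (114), 907 (119) and 950.0 (133) with the low ratio. This gave a fold change of −0.25 ± 0.19 (SE, adjusted p = 0.475), which was −0.045 without library 1015 and −0.42 without library 1019. Among preadipocytes Rxra was lowest and Rxrb highest in library 1015, which was also the shallowest at 13.8 M reads. The part of depth in these values was not tested.

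Ppargc1a, the coactivator that raises mitochondrial and oxidative genes in muscle and brown fat, had the widest ratio of highest to lowest value of all members in progenitors, although Ppara had the larger pooled SD. There, on high-ratio milk it had 13.8 (1015), 5.39 (1017), 2.45 (1018) and 4.15 (1019) normalized counts. With the low ratio it had 6.46 (108), 2.81 (114), 53.2 (119) and 82.8 (133). Libraries 119 and 133 stood above all other progenitors, while 108 and 114 lay within the high-ratio range, so the groups overlapped. The highest value was 29.4 times the lowest within the low-ratio group. The pooled SD within groups was 1.65 on the log2 scale in progenitors and 0.73 in preadipocytes, beside the medians of 0.71 and 0.63 for genes at that level. In reads, 119 and 133 rested on an estimated 51.2 and 77.8, and 1018 and 114 on 2.31 and 2.48. The estimate was 1.57 ± 1.027 (SE, adjusted p = 0.762), with a 95% interval from 0.602-fold to 14.6-fold. The authors' deposited table gives a log2 fold change of 2.43 (p = 0.0140, adjusted p = 0.371).

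The high values of libraries 119 and 133 did not recur in preadipocytes with the same numbers. There Ppargc1a had 6.997 (1015), 15.5 (1017) and 25.3 (1019) with the high ratio, and 6.97 (108), 5.01 (114), 15.7 (119) and 7.27 (133) with the low ratio. The milk effect was estimated at −0.75 ± 0.62 (SE, adjusted p = 0.511). The milk effect in preadipocytes minus that in progenitors was −2.31 ± 1.29 (SE, unadjusted p = 0.0936, adjusted p = 0.381), so a difference between the populations was not called.

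Skeletal muscle transcripts were also high in 1 of these progenitor libraries. The 6 muscle markers measured of 7 listed (Myf5 was not analysed here) summed to 66.6 CPM in library 119 and 41.3 in 133. The other low-ratio progenitors had 30.2 and 42.4, and the high-ratio ones 28.6 to 40.4. Pax7 and Myod1, which mark muscle precursor cells, did not exceed 4.50 and 16.9 normalized counts in any progenitor library, and 0 of 4 muscle markers tested were called. The brown and beige markers summed to 1.26 in library 119 and 1.30 in 133, within the 0.981 to 1.44 of high-ratio progenitors, and Ucp1, Cidea, Cox8b, Elovl3 and Otop1 were too low to be tested. The part of muscle transcripts in the Ppargc1a values was not tested.

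Among 10162 genes with a mean of at least 100 in both tables, the nearest in pattern to Ppargc1a over the 15 libraries were Wnk4, Dlk1 and Sdk2. The measure was the root mean square difference of log2 values, centred per table, which was 0.79, 0.96 and 0.99, where Ppargc1a's own spread about its table means was 1.29. Dlk1, a precursor surface protein that restrains fat cell formation, had 48175 normalized counts in progenitor library 119 and 24189 in 133, against 9001 to 22159 in the other progenitors. Wnk4, a kinase that regulates ion transport, had 296 and 363, against 55.9 to 186. Sdk2, a cell adhesion gene, had 830 and 322, and library 1015 with 383 lay above 133. The 3 genes were picked for likeness over these libraries, so high values in the same libraries follow from the choice. Dlk1 was called between milks in neither population (0.67 in progenitors, adjusted p = 0.754, and 0.41 in preadipocytes, adjusted p = 0.440). In preadipocytes Dlk1 was highest in library 119 again (29633), and Wnk4 was level between 119 (184) and the high-ratio library 1017 (184).

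**Figure D2:**
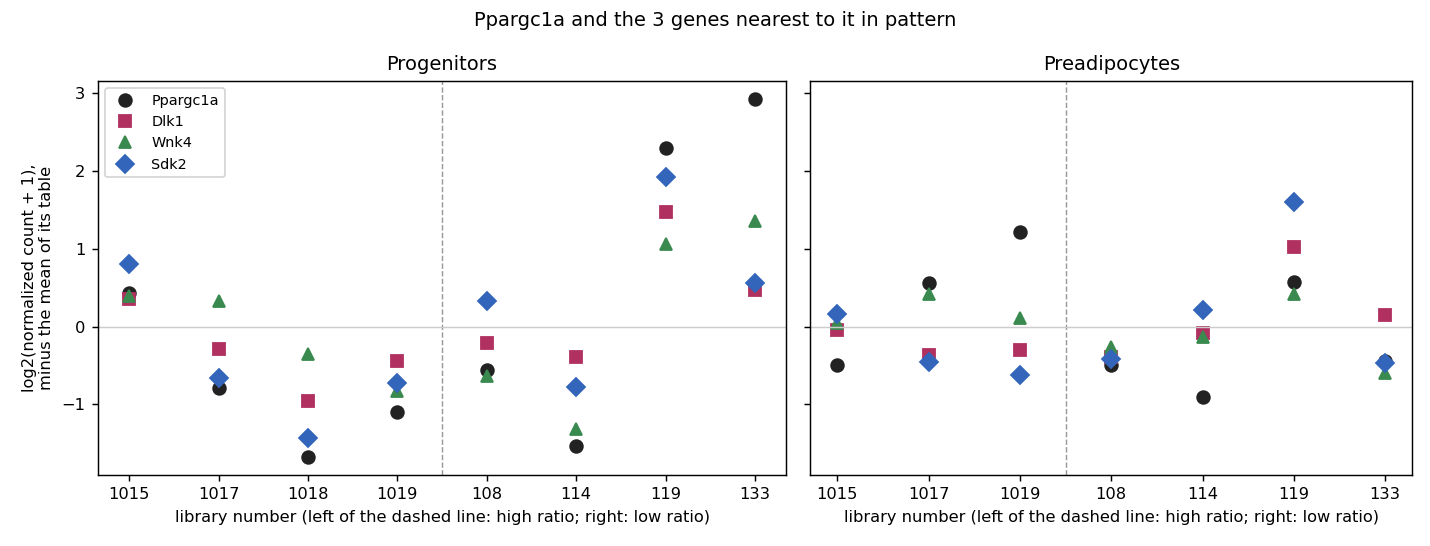
Ppargc1a and the genes picked for likeness to it, Wnk4, Dlk1 and Sdk2, in each library (x axis, library number, high-ratio milk left of the dashed line), as log2(normalized count + 1) minus the gene's mean in that table (y axis). In progenitors Ppargc1a, Wnk4 and Dlk1 are highest in libraries 119 and 133, where Ppargc1a had 53.2 and 82.8 normalized counts, while Sdk2 is higher in 1015 than in 133. In preadipocytes Ppargc1a is highest in library 1019 at 25.3.

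Ppargc1b, the relative of Ppargc1a, was scarce and uneven too. In progenitors it had 20.03 (1015), 44.6 (1017), 18.8 (1018) and 17.9 (1019) normalized counts with the high ratio, and 19.99 (108), 15.9 (114), 40.3 (119) and 14.2 (133) with the low ratio. A single library per milk, 1017 and 119, stood well above the rest of its group. The fold change was −0.17 ± 0.47 (SE, adjusted p = 0.949). In preadipocytes it had 21.8 (1015), 20.1 (1017) and 19.4 (1019) with the high ratio, and 7.72 (108), 26.4 (114), 23.7 (119) and 4.98 (133) with the low ratio. The high-ratio libraries lay close together inside the range of the low-ratio ones. Its fold change was −0.64 ± 0.62 (SE, adjusted p = 0.579). The pooled SD within groups was 0.62 in progenitors and 0.85 in preadipocytes, the latter above the 0.73 of Ppargc1a. The gene spans bases 61298136 to 61400431 of chromosome 18, minus strand.

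Ncor1, the corepressor, varied little between libraries. Its pooled log2 SD within groups was 0.14 in progenitors and 0.09 in preadipocytes, beside medians of 0.16 and 0.17 for genes at its level. In progenitors it had 4922 (1015), 4913 (1017), 3836 (1018) and 4986 (1019) normalized counts with the high ratio, and 4985 (108), 4726 (114), 5203 (119) and 4779 (133) with the low ratio. Library 1018 was lower than all others, and it was also the lowest progenitor library for Pparg, Ppara and Ppargc1a. This gave a fold change of 0.09 ± 0.10 (SE, adjusted p = 0.862), with a 95% interval from 0.912-fold to 1.23-fold. In preadipocytes it had 3577 (1015), 3509 (1017) and 3825 (1019) with the high ratio, and 3331 (108), 3775 (114), 3927 (119) and 3742 (133) with the low ratio. The estimate was 0.02 ± 0.09 (SE, adjusted p = 0.915), with a 95% interval from 0.877-fold to 1.17-fold.

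The precision thus differed between members. For Ppard, Rxra, Rxrb and Ncor1 in progenitors and for Ppard and Ncor1 in preadipocytes, the 95% interval stayed below a 1.5-fold change in either direction. For Ppara, Ppargc1a and Ppargc1b in both populations, and for Pparg in progenitors, it reached past a 1.5-fold change in both directions. 0 of the 8 members were called for a difference in milk effect between the populations, where 2.28% of 15354 genes tested were (1.65% with a lower effect in preadipocytes). The values were 0.32 ± 0.20 for Rxra (SE, adjusted p = 0.444), −0.34 ± 0.26 for Rxrb (SE, adjusted p = 0.539) and 0.33 ± 0.52 for Pparg (SE, adjusted p = 0.793).

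**Figure D3:**
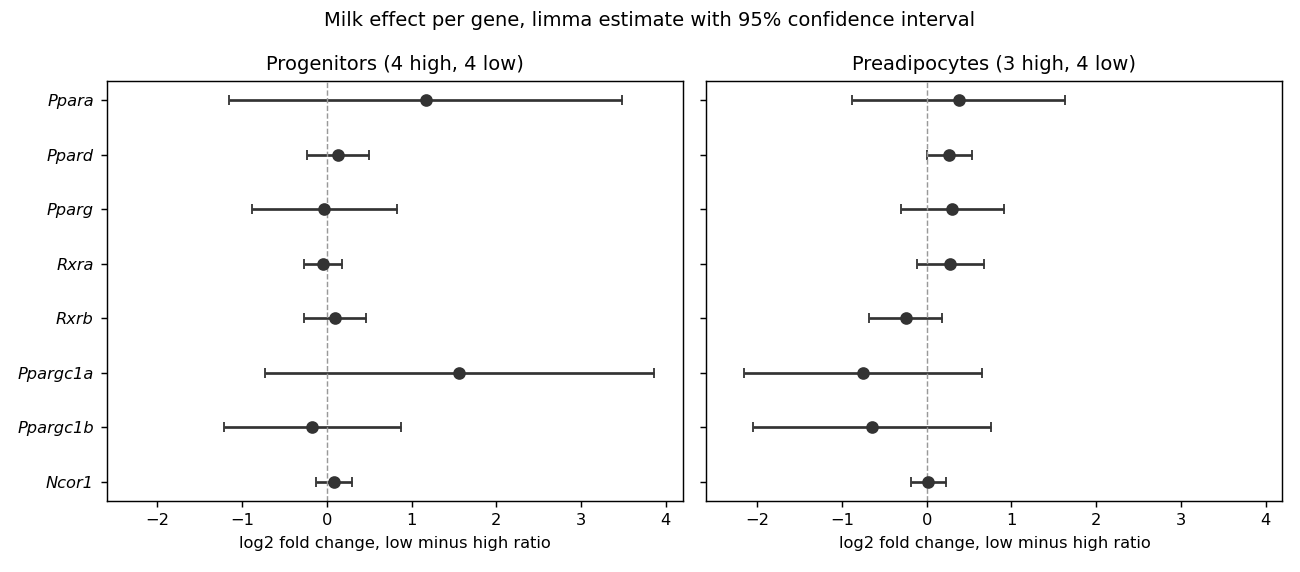
Log2 fold change of each gene (low minus high n6/n3 ratio, x axis) from limma in progenitors (4 against 4 libraries) and preadipocytes (4 low against 3 high). Points are estimates and bars 95% confidence intervals, which span 0 for every gene except Ppard in preadipocytes, whose interval is 0.0014 to 0.53 before adjustment over genes.

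Between the populations, Pparg was the member that stood apart. The tables were normalized separately, so levels relative to each library's own total, in CPM, are set side by side here, with no test. Same-numbered libraries were not taken as pairs, and counts by shared number only describe the values. Pparg had 9.69 ± 3.52 CPM in progenitors (SD, n = 8) and 21.2 ± 5.80 in preadipocytes (SD, n = 7), a ratio of 2.19. Progenitor libraries ranged from 4.41 to 14.4 and preadipocyte libraries from 14.8 to 28.9, so they did not overlap, as in 5.50% of genes in both tables (4.29% with preadipocytes above). In all 7 numbers that occur in both populations the preadipocyte library was the higher one, as in 12.3% of genes. The closest pair was 1019, with 14.4 and 14.8, and the widest 133, with 4.84 and 27.96.

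Ncor1 went the other way by a small amount. It had 116 ± 11.5 CPM in progenitors (SD, n = 8) and 106 ± 4.45 in preadipocytes (SD, n = 7), and the preadipocyte library was the lower one in all 7 shared numbers, as in 4.46% of genes. The ranges overlapped because of progenitor library 1018, which has no preadipocyte counterpart. Rxrb was higher in preadipocytes in 6 of 7 shared numbers, with 27.0 ± 5.23 and 32.8 ± 8.05 CPM (SD, n = 8 and 7). Rxra had 62.7 ± 6.09 and 58.0 ± 9.63, and Ppard had 24.3 ± 4.30 and 21.6 ± 2.01 (SD, n = 8 and 7). Both were above the progenitor value in 3 of 7 shared numbers, and the populations overlapped. The scarce members Ppara, Ppargc1a and Ppargc1b averaged 0.919, 0.515 and 0.578 CPM in progenitors and 0.475, 0.342 and 0.513 in preadipocytes, with ranges that overlapped.

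**Figure D4:**
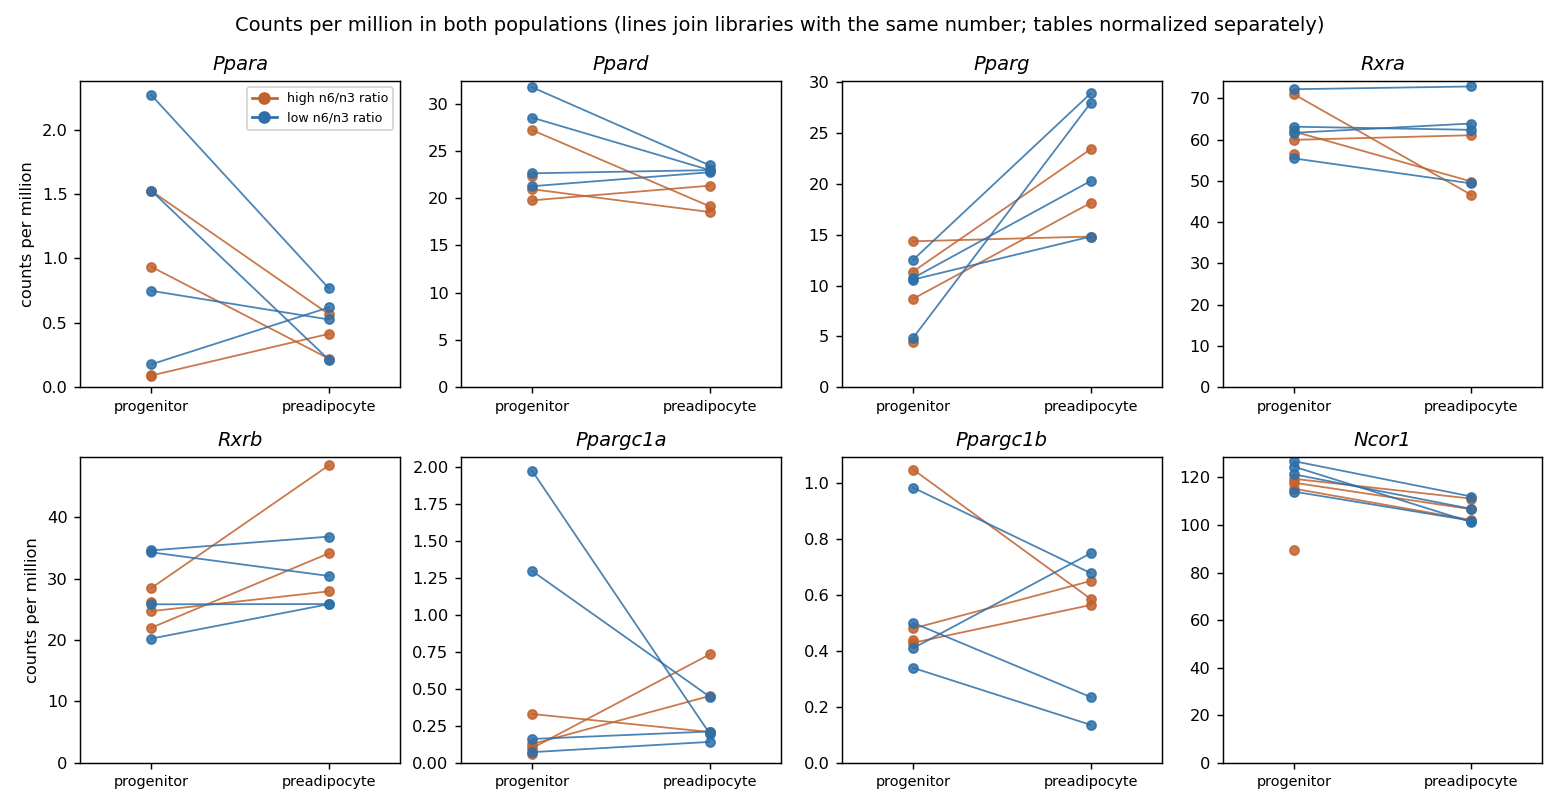
Levels of the 8 genes in CPM (y axis, separate scale per gene) in progenitors and preadipocytes (x axis). Points are libraries coloured by milk and lines join libraries with the same number, which were not taken as pairs. Pparg lies at 4.41 to 14.4 in progenitors and 14.8 to 28.9 in preadipocytes, and every one of its lines rises.

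Levels between genes were compared after CPM values were divided by the median transcript length in kilobases. In progenitors the order was Ncor1 (146), Rxra (31.8), Rxrb (30.6), Ppard (17.0), Pparg (10.6), Ppara (0.757), Ppargc1a (0.187) and Ppargc1b (0.174). Neighbours whose libraries overlapped were Rxra and Rxrb, Ppard and Pparg, and the last 3 in turn. In preadipocytes the order was Ncor1 (134), Rxrb (37.1), Rxra (29.4), Pparg (23.2), Ppard (15.1), Ppara (0.391), Ppargc1b (0.154) and Ppargc1a (0.124). Pparg and Ppard thus stood in opposite order in the populations, and in both the libraries of the pair overlapped. Per kilobase of longest transcript, however, every preadipocyte library had more Pparg (6.97 to 13.6) than Ppard in any (4.97 to 6.30). Every abundant member lay above every library of the 3 scarce ones in both populations. The lead of Ncor1 depends on the length used, since its median transcript is 0.793 kb and its longest 9.04 kb. Per kilobase of longest transcript, Ncor1 and Rxra had 12.9 and 12.8 in progenitors, and Rxrb (12.5), Rxra (11.8), Ncor1 (11.7) and Pparg (9.97) overlapped in turn in preadipocytes.

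For Pparg, the genes nearest in pattern over the 15 libraries were Wdcp (0.26), Zfx (0.29) and Utp14b (0.31), where its own spread was 0.49. For Rxrb they were Cct6a (0.11), Nt5c3b (0.12) and Rer1 (0.14), with an own spread of 0.25. For Rxra they were Pcdhgc3, Zmiz1 and Gpalpp1 (all 0.12, own spread 0.20), for Ppard Camk1d, Ids and Cmtm3 (0.12 to 0.13, own spread 0.20) and for Ncor1 Bod1l, Mex3b and Nsd3 (0.07 to 0.08, own spread 0.11). For Ppara and Ppargc1b the differences were larger, as was their own spread. The nearest to Ppara were Ndst2, Eps8l1 and Tceanc2 (0.93 to 0.98, own spread 1.27). Those nearest to Ppargc1b were Trp53inp1, Pcgf5 and Myoc (0.44 to 0.47, own spread 0.67). Candidates needed a mean of at least 100 in both populations, so genes as scarce as these members could not be chosen.

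Of the wider machinery around these receptors, 9 lists with 155 genes in all, the share called was no larger than that of all genes tested. In progenitors 0 of 145 listed genes tested were called, against 0.0% of all genes tested. In preadipocytes 4 of 146 (2.74%) were called, against 2.88%, and in the difference between populations 2 of 142 (1.41%), against 2.28%. In preadipocytes Cd36, the fatty acid translocase and a classic PPARγ target, fell. It had 8075 (1015), 7406 (1017) and 6484 (1019) normalized counts with the high ratio, and 4079 (108), 4399.6 (114), 4475 (119) and 3533 (133) with the low ratio. The groups were far apart, and the fold change was −0.83 ± 0.12 (SE, adjusted p = 0.0230). It was the single gene called among 28 tested of 30 PPAR target genes, with 0 that rose. The median of that list was 0.09, beside 0.04 for all genes tested. Fabp4, the fatty acid binding protein of fat cells, had 8932 ± 1799 (SD, n = 3) and 5409 ± 1396 (SD, n = 4) and was not called (−0.74 ± 0.23 SE, adjusted p = 0.110). Ucp2, a mitochondrial carrier, had values that were higher with the low ratio in both populations (0.77 in each, adjusted p = 0.631 in progenitors and 0.127 in preadipocytes). Plin2, the lipid droplet coat gene, had lower values in progenitors (−0.35 ± 0.12 SE, adjusted p = 0.672).

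Among ligand handling genes, Ephx1 rose and Hpgd fell, out of 16 tested of 20. Ephx1, the microsomal epoxide hydrolase, had 1715 ± 306 normalized counts with the high ratio (SD, n = 3) and 2768 ± 111 on low-ratio milk (SD, n = 4), a fold change of 0.71 ± 0.13 (SE, adjusted p = 0.0365). Hpgd, which breaks down prostaglandins, had 4199 ± 282 (SD, n = 3) and 2193 ± 472 (SD, n = 4), a fold change of −0.96 ± 0.18 (SE, adjusted p = 0.0365). The groups of both genes did not overlap, as in 21.1% of genes tested in preadipocytes. Ptgs1, the constitutive cyclooxygenase gene, had values that were higher with the low ratio (0.71 ± 0.17 SE, adjusted p = 0.0578). In progenitors Acsl4 (0.97), Aldh1a3 (−0.46) and Ephx2 (−0.61) had the smallest p of this list and were not called (adjusted p = 0.656, 0.616 and 0.676). The milk effect on Ephx1 differed between the populations (0.84 ± 0.16 SE, adjusted p = 0.0217), a call that was lost without preadipocyte library 1015 (0.68, adjusted p = 0.0544) and with the replicate number as a block (0.82, adjusted p = 0.0844).

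Among the 12 corepressor partners, all tested, Hdac2 fell in preadipocytes and was the single gene called, so Hdac3 on the same list was not called. The list median was 0.10, beside 0.04 for all genes tested, with 8 of 12 at higher values. The histone deacetylase gene Hdac2 had 4585 (1015), 3839 (1017) and 3398 (1019) normalized counts with the high ratio, and 2760.4 (108), 2413 (114), 1906 (119) and 2454 (133) with the low ratio. The groups did not overlap, as for 21.1% of genes tested, and the fold change was −0.73 ± 0.15 (SE, adjusted p = 0.0450). Its relative Hdac1 had a fold change of −0.35 ± 0.10 (SE, adjusted p = 0.0931) and Tbl1xr1, the exchange factor of the NCoR complex, 0.44 ± 0.19 (SE, adjusted p = 0.222). In progenitors Tbl1xr1 (0.44, adjusted p = 0.672) and Lcor (0.38, adjusted p = 0.709) had low-ratio libraries that all lay above the high-ratio ones and were not called, where 4.04% of genes tested did not overlap (2.03% in that direction).

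Of 18 genes listed as coactivators, all tested, 0 were called in either population. The smallest p belonged to the histone methyltransferase Carm1 in preadipocytes (0.43 ± 0.10 SE, adjusted p = 0.0578), then Ctbp1, which is known as a corepressor (0.37, adjusted p = 0.0717), and in progenitors to the PGC-1 relative Pprc1 (0.37 ± 0.13 SE, adjusted p = 0.676). Of 19 transcription factors upstream of Pparg, all tested, 0 were called within a population. Cebpa, which acts beside PPARγ in fat cell formation, had 1129.7 ± 125 (SD, n = 3) and 822 ± 54.1 (SD, n = 4) in preadipocytes (−0.46 ± 0.12 SE, adjusted p = 0.0808). Stat5b had values that were higher with the low ratio in preadipocytes (0.45, adjusted p = 0.0556) and lower ones in progenitors (−0.18, adjusted p = 0.748), and this difference was called (0.63 ± 0.13 SE, adjusted p = 0.0271). It was lost with trends on GC content and length removed (0.45, adjusted p = 0.0991), scaled to library totals (0.53, adjusted p = 0.0623), with the replicate block (0.63, adjusted p = 0.123), and without progenitor library 1015, 1018, 1019 or 114 or preadipocyte library 1015, 1017, 119 or 133 (adjusted p = 0.0506 to 0.0775, with differences of 0.54 to 0.65). The median of this list in preadipocytes was 0.30, beside 0.04 for all genes tested, with 15 of 19 at higher values. The list was not split by whether a factor raises or lowers Pparg, so its median gives no direction for Pparg.

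In the remaining lists 0 genes were called in either population. These were 14 other retinoid X and partner receptors (11 tested in progenitors and 12 in preadipocytes), 14 partners of PGC-1 (13 tested), 14 regulators upstream of PGC-1 and 14 kinases, ubiquitin and SUMO enzymes that act on PPARγ. Rarb, a retinoic acid receptor, had 365 ± 120 and 190.5 ± 37.1 normalized counts in progenitors (SD, n = 4 each), a fold change of −0.90 ± 0.25 (SE, adjusted p = 0.591). Tfam, which maintains mitochondrial DNA, had fold changes of −0.35 and −0.36 in progenitors and preadipocytes (adjusted p = 0.708 and 0.274). Mybbp1a, a repressor of PGC-1α, had 0.43 ± 0.11 (SE, adjusted p = 0.0716) and Trim23 −0.53 ± 0.15 (SE, adjusted p = 0.0972) in preadipocytes.

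The 4 calls within preadipocytes were not firm, although some settings kept all of them. These were a pseudocount of 5, no filter and the transformed values. So did the authors' deposited comparison, which called 1834 genes in all. Its adjusted p was 8.6e-07 for Cd36, 0.00028 for Ephx1, 0.00014 for Hpgd and 0.0011 for Hdac2. After trends on GC content and length were removed, the fold changes of Cd36 (−0.40, adjusted p = 0.0855), Hdac2 (−0.37, adjusted p = 0.157) and Hpgd (−0.59, adjusted p = 0.0976) were smaller by over 1.5 times, while Ephx1 was nearer its size (0.61, adjusted p = 0.0682). Scaled to library totals, Hdac2 had −0.76 and an adjusted p of 0.0515. Leaving out library 1015, 1017, 108, 114, 119 or 133 ended each of the calls, while leaving out 1019 ended none of them. Without one of those 6 libraries the adjusted p ranged from 0.0525 to 0.0933 for Cd36, from 0.0681 to 0.107 for Ephx1, from 0.0519 to 0.125 for Hpgd and from 0.0665 to 0.141 for Hdac2. The fold changes in those settings were −0.87 to −0.76 for Cd36, 0.55 to 0.81 for Ephx1, −1.04 to −0.79 for Hpgd and −0.80 to −0.61 for Hdac2. Cell type markers were summed in the same preadipocyte libraries. The 7 endothelial markers summed to 206 to 263 CPM in high-ratio and 271 to 366 in low-ratio preadipocytes, and most of the sum was Tek, with a mean of 200.1 CPM. Tek rose (0.61, adjusted p = 0.0469), whereas 5 of the other 6 had lower values (−0.37 for Cldn5 to −0.04 for Tie1) and Cdh5 had 0.23, none of them called. The 5 erythroid markers summed to 57.8 to 223 and 32.2 to 69.3 CPM, and 0 were called. Macrophage and leukocyte markers (17.5 to 20.1 and 10.3 to 24.9 CPM) and mature fat cell markers (8.96 to 11.6 and 9.08 to 12.4) overlapped between milks. The 10 precursor markers summed to 5362 to 6294 with the high ratio and 6229 to 6619 with the low one, and 0 were called. Their part in these results was not tested.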

How the data were processed

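RNA-seq values of 15 libraries came as a table per sorted population, each normalized on its own. The submitters' processing notes name the builds mm10 and GRCm38 and the tools Salmon (0.14.2) and DESeq2 (1.28.1). The deposited values are variance-stabilized and close to log2, with a floor of 7.70 in progenitors and 7.12 in preadipocytes. The authors' deposited comparison, with a log2 fold change and p-values per gene, served as a second source.

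The transformation was inverted to normalized counts. Group means recomputed from them matched the authors' fold changes with a median absolute difference of 0.000751 (11164 genes) and 0.00304 (11076 genes). Whole reads came out for 35.7% to 79.0% of low values of single-transcript genes (tolerance 0.02), so no count test was run. The step between low values gave the depth estimate. Gene names, lengths and GC content came from GENCODE annotation of GRCm38, which matched 23322 and 23096 of the gene IDs. Promoter windows came from RefSeq (GRCm38.p6), and Ppargc1b was not among them.

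Milk effects were tested with limma 3.58.1 in R 4.3.3 (trend and robust options) on log2(normalized count + 1), keeping genes whose mean was 10 or more, with Benjamini-Hochberg adjustment over all genes at 0.05. The difference between populations was a contrast over all 15 libraries. All 8 members passed the filter in both tables. Alternatives were a pseudocount of 5, no filter, the transformed values, library totals, removal of GC and length trends, each library left out, the replicate number as a block, and the authors' own comparison. Named genes were the members, from each list up to 3 genes with the smallest p per population plus those called, and the 3 genes nearest in pattern. The members, lists and rules were chosen with earlier results of these data known.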

Additional observations from a re-analysis of the deposited data

Results flagged for a closer look

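In 2 of 24 groups of 4 libraries (8 genes in 3 groups), a single library lay far from the other 3. For normally distributed values chance gives about 1 in 20, and 2 of 24 cannot be told apart from that rate. The share over all genes is not given here. Ppargc1b in progenitors on high-ratio milk had 44.6 normalized counts in library 1017, where the others had 17.9 to 20.03. Ncor1 in progenitors on high-ratio milk had 3836 in library 1018, where the others had 4913 to 4986. The milk effect differed between preadipocytes and progenitors, in a test of the difference itself with limma, for Stat5b (0.63, adjusted p = 0.0271) and Ephx1 (0.84, adjusted p = 0.0217). Both calls were lost with the replicate block (adjusted p = 0.123 and 0.0844) and without preadipocyte library 1015 (0.0775 and 0.0544). The sign is that of the preadipocyte effect minus the progenitor effect.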

How the results depend on the processing

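Of the 8 members, 0 were called in either population or in the difference under every alternative run, including each library left out. Counts over all genes did move. In progenitors 0 genes were called, against 101 in the authors' deposited table and 0 to 3 with a library left out. In preadipocytes 458 became 12 with GC and length trends removed and 1834 in the authors' deposited table, and ranged from 2 (without 108) to 1159 (without 1019) with a library left out. In the difference 350 became 137 with GC and length trends removed, 43 with the replicate block, and 70 (without preadipocyte 1015) to 849 (without preadipocyte 1019) with a library left out. The cause was not tested. Same-numbered libraries of both populations correlated at −0.0594 to 0.0910 in their deviations from group means, and the numbers were not taken as pairs. A low correlation over all genes cannot exclude that a number stands for the same pups in both populations. The replicate block, which does pair the numbers, also ended the calls of Stat5b (adjusted p = 0.123) and Ephx1 (0.0844). Scaling to library totals ended that of Stat5b (0.0623).

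Fold changes of members near 0 turned their sign. Scaled to library totals, progenitor Pparg was 0.034, progenitor Rxra 0.0160 and preadipocyte Ncor1 −0.0161, and with the replicate block the Ncor1 difference was 0.027. With a library left out, progenitor Pparg ranged from −0.36 to 0.26, Rxra from −0.094 to 0.020, Rxrb from −0.0030 to 0.23, Ppargc1b from −0.48 to 0.13 and Ncor1 from −0.0061 to 0.12, preadipocyte Ncor1 from −0.0096 to 0.070 and the Ncor1 difference from −0.099 to 0.027. Progenitor Ppargc1a ranged from 0.85 (without 133) to 2.34 (without 114) and Ppara from 0.59 (without 1018) to 1.86 (without 119). Preadipocyte Ppara ranged from 0.02 (without 1015) to 0.72 (without 133), Pparg from 0.15 (without 1019) to 0.49 (without 114), Ppargc1a from −1.21 (without 1015) to −0.55 (without 114) and Ppargc1b from −0.97 (without 114) to −0.24 (without 133). Without 1019, preadipocyte Ppargc1a fell under the filter on low values and gave no estimate. Depth limits Ppara, Ppargc1a and Ppargc1b, which rest on as few as 3.06, 2.31 and 6.72 estimated reads in a library.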
